A study of Mus musculus with 15 samples.

Results

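Insulin-like growth factor 1 (Igf1), the receptors Igf1r and Igf2r and the binding proteins Igfbp2 to Igfbp7 are described here across mouse bone marrow cells. These 9 genes were chosen by symbol, and each matched 1 of the 56979 gene identifiers in the deposited table. The 15 libraries of polyadenylated RNA came from wild-type cells in 5 groups of 3. The 3 groups, written Control (vehicle), LPS and LPS_NZM, were bone marrow-derived macrophages (BMDM). LPS is lipopolysaccharide, a component of bacterial outer membranes that activates macrophages, and LPS_NZM had LPS and NZM. The other groups were BMSC, a cell type the labels give by that abbreviation, written Aged (treatment H2HO) and Aged_NZM (H2HO with NZM). Per the series' design text, NZM followed pretreatment with the agent of each model, so all cells given NZM had LPS or H2HO before it. The labels explain neither NZM nor H2HO and give no age of the animals. No group had NZM alone, and no untreated BMSC group was analysed here.

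Insulin-like growth factors are small secreted hormones related to insulin. IGF1 activates IGF1R, a tyrosine kinase that signals through insulin receptor substrates to PI3K, AKT and mTOR. IGF2R has no such kinase. It removes IGF2 from the cell surface and carries enzymes tagged with mannose 6-phosphate to lysosomes. Outside the cell IGFs are held by binding proteins, which lengthen their life and can block or release them, often after cleavage by a protease. Macrophages are a known local source of IGF1, and marrow stromal cells are known to secrete several binding proteins.

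Values are TPM, a length-corrected share of each library's transcripts, so levels of different genes can be set side by side. Changes were tested as differences of log2(TPM + 1) and were called at a Benjamini-Hochberg adjusted p under 0.05 over all tested genes. The labels do not say whether the 3 libraries of a group are separate animals or cultures, so a p-value here reflects library-to-library variation that may be no more than technical. Each library had 21360 to 23398 identifiers above 0, at a depth that TPM do not show. The BMDM libraries held macrophage marker transcripts (15 genes, summed TPM 26159 to 37618), and they also held those of stromal cells (16 genes, 5332 to 6955) and neutrophils (10 genes, 1660 to 2567). In the BMSC libraries macrophage markers summed to 22.4 to 35.4 TPM, with Tyrobp, C1qb and C1qc at 0 in all 6. Stromal markers summed to 4340 to 4568 TPM in Aged, below every BMDM library, and to 11151 to 11207 TPM in Aged_NZM. In such bulk libraries fewer cells of a type and less RNA per cell cannot be told apart.

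Upstream sequences are shown for the 4 binding protein genes whose transcripts NZM changed in BMSC, Igfbp3 and Igfbp4 (lower) and Igfbp6 and Igfbp7 (higher). Each run is the 250 bases before the gene start listed by RefSeq on GRCm38.p6, 5′ to 3′ on the gene's own strand, and none of these windows overlapped an annotated exon. The deposited values were made on GRCm39, so these coordinates belong to the sequence table only. Capitals mark, on either strand, the letters TATAAA of the TATA box, GGGCGG of the Sp1 box and CCAAT, which binds the factor NF-Y.
Igfbp3 (chr11:7213924-7214173, minus strand): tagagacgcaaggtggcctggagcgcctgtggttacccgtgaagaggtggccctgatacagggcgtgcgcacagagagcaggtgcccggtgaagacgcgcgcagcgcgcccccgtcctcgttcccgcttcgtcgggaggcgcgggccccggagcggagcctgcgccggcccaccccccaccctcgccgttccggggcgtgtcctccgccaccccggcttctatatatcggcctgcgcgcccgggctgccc
Igfbp4 (chr11:99040994-99041243, plus strand): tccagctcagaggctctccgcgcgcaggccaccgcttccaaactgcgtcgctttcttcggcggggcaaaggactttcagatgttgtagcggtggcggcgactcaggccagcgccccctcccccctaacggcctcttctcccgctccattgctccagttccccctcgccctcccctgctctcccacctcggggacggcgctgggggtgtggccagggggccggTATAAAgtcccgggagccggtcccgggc
Igfbp6 (chr15:102143936-102144185, plus strand): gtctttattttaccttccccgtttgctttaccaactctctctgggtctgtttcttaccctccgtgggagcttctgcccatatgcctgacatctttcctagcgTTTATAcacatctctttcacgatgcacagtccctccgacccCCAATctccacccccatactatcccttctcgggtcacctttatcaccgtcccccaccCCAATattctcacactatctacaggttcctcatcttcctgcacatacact
Igfbp7 (chr5:77408046-77408295, minus strand): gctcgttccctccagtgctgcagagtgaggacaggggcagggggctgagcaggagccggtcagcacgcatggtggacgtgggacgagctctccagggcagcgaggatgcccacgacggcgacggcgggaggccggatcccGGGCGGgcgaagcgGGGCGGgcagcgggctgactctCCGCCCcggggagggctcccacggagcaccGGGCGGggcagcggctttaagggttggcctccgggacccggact
The Igfbp4 window holds TATAAA starting 28 bases before the start, and the Igfbp7 window holds 4 GGGCGG matches. In the Igfbp6 window are 2 CCAAT matches and 1 TATAAA match on the other strand, 148 bases before the start. The Igfbp3 window holds none of these exact letters. Looser forms were not searched, such as the run tatatat near the end of the Igfbp3 window. Of all 32851 listed windows of this length, 12.4% hold TATAAA, 32.7% GGGCGG and 33.8% CCAAT. Windows of all 9 genes were also searched on both strands for TGANTCA (AP-1, in 2 genes, 6.75% of all windows), a loose NF-kB pattern (6 genes, 45.8%), GAGGAA (PU.1, 3 genes, 23.3%) and GTGGGCG (EGR, 1 gene, 7.02%). No window of the 9 held TTCNNNGAA (STAT, 7.02% of all windows), the STAT6 form with a longer gap (5.85%), TGTTTNC (FOXO, 17.8%), TTGCNNAA (C/EBP, 9.56%) or GTCTAGAC (SMAD, 0.167%). Matches of different motifs overlap in the Igf2r window (GGGCGG with the NF-kB pattern). Igfbp2 has 2 listed windows, and a motif in either was counted for it. The listed Igf1 window lies within an annotated Igf1 exon and is not shown. In the RefSeq table Igfbp2 and Igfbp5 are neighbours on chromosome 1, and Igfbp3 stands next to Igfbp1 on chromosome 11.

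The ligand gene Igf1 (ENSMUSG00000020053) was a transcript of the BMDM libraries. It read 338, 351 and 338 TPM in Control, 119, 117 and 116 TPM in LPS, and 390.0, 397 and 419 TPM in LPS_NZM. In BMSC it read 2.04, 1.92 and 2.21 TPM in Aged and 15.2, 14.5 and 17.1 TPM in Aged_NZM. No library of a group overlapped any other group, and the order from high to low was LPS_NZM, Control, LPS, Aged_NZM and Aged. The highest BMSC library was below the lowest BMDM library. With its mean of 342 TPM in Control, Igf1 stood above 98.4% of the identifiers with a level over 0 in that group.

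The signalling receptor gene Igf1r (ENSMUSG00000005533) had the opposite order of cell types. It read 10.6, 11.02 and 10.9 TPM in Control, 6.52, 6.90 and 7.49 TPM in LPS, and 7.32, 6.95 and 7.90 TPM in LPS_NZM. Aged libraries read 34.1, 30.4 and 30.6 TPM, and Aged_NZM libraries 36.0, 37.0 and 37.5 TPM. LPS and LPS_NZM overlapped, and all BMSC libraries were above all BMDM libraries. Igf2r (ENSMUSG00000023830) was closer to even, with group means of 61.1 ± 3.10 TPM in Control, 42.0 ± 1.22 in LPS, 41.0 ± 3.22 in LPS_NZM, 52.2 ± 1.66 in Aged and 50.4 ± 0.777 in Aged_NZM (SD, n = 3). Its LPS and LPS_NZM libraries overlapped, as did its Aged and Aged_NZM libraries. The counting strand is not given in the sources used here, and Airn, a noncoding RNA transcribed antisense across part of Igf2r, read 4.43 ± 0.070 TPM in Control, 1.11 ± 0.254 in LPS and 1.45 ± 0.187 in LPS_NZM. In BMSC it read 5.07 ± 0.626 TPM in Aged and 7.21 ± 1.15 TPM in Aged_NZM. Reads of the pair may not be separable.

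**Figure D1:**
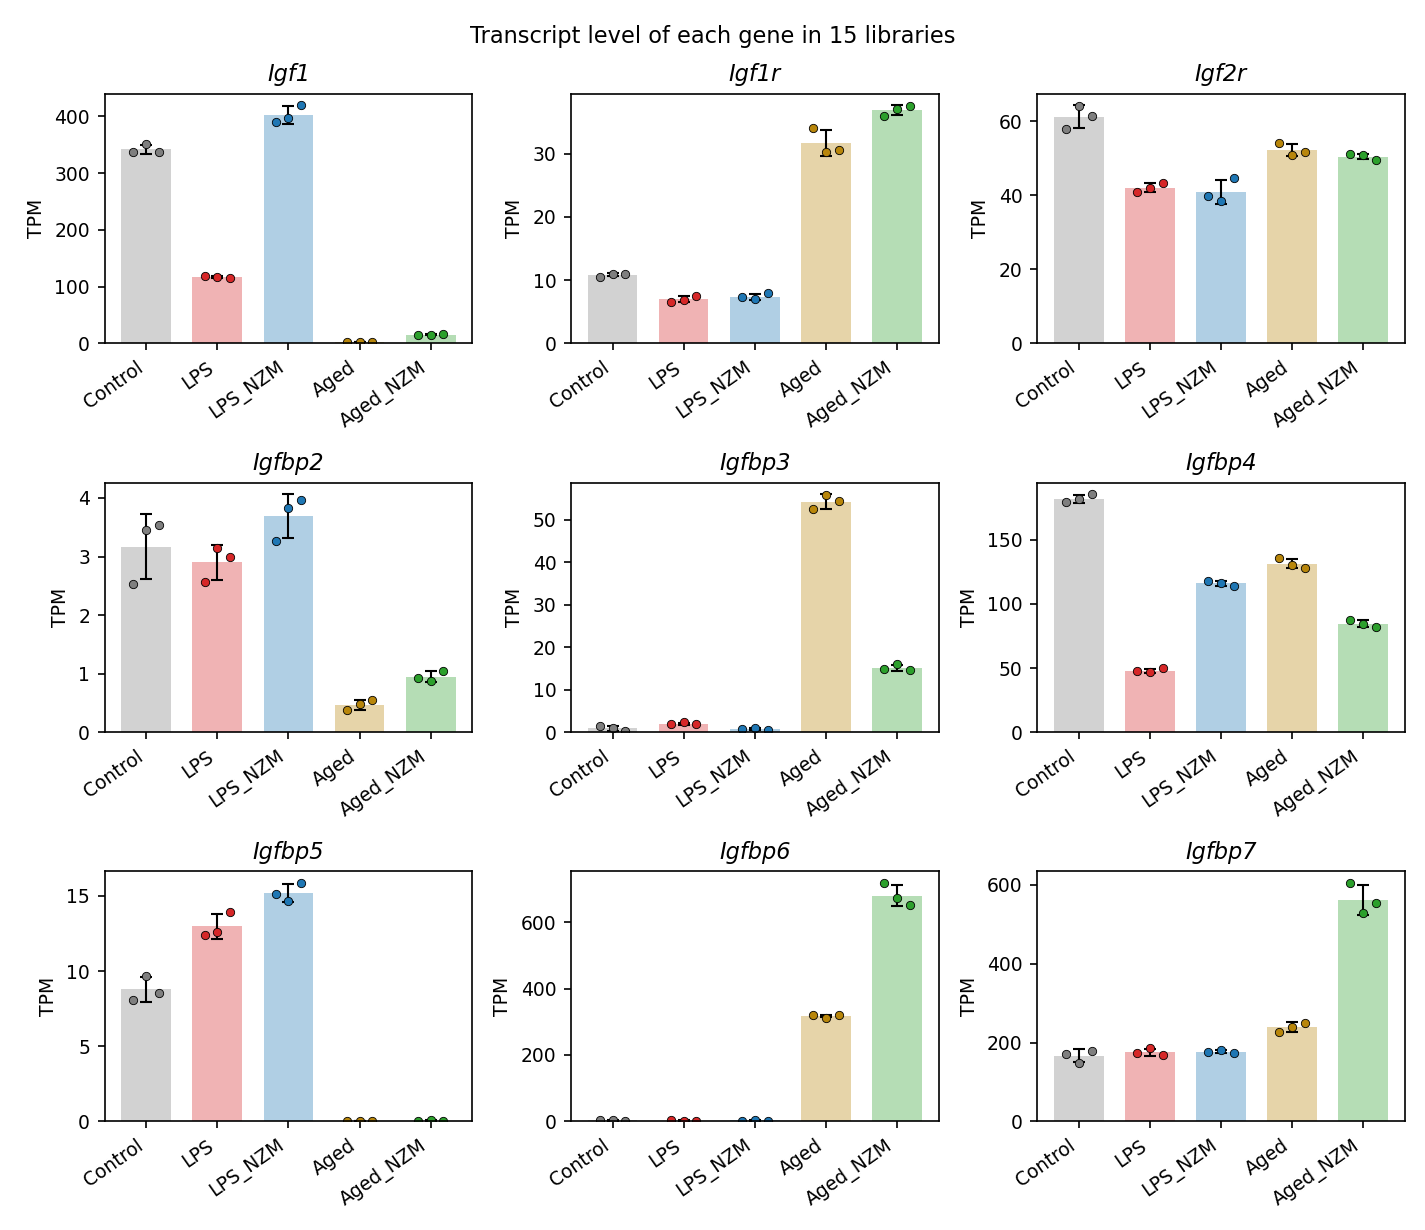
TPM (vertical axes, linear and each on its own scale from 0) of the 9 genes in the 5 groups. Points are libraries, bars are means of 3 and whiskers are SD. Igf1 and Igfbp5 were high in BMDM, Igf1r, Igfbp3 and Igfbp6 in BMSC, and Igf1 and Igfbp4 were low in LPS among the BMDM groups.

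Among the binding proteins, Igfbp4 and Igfbp7 were well expressed in both BMDM and BMSC libraries. Igfbp4 (ENSMUSG00000017493), which binds both IGFs and is cleaved by the protease PAPP-A, read 179, 182 and 185 TPM in Control, 47.5, 46.7 and 49.9 TPM in LPS, and 118, 116 and 114 TPM in LPS_NZM. It read 135, 130.3 and 128 TPM in Aged and 87.4, 84.2 and 82.4 TPM in Aged_NZM. Its 5 groups did not overlap, in the order Control, Aged, LPS_NZM, Aged_NZM and LPS. Igfbp7 (ENSMUSG00000036256), a relative with low affinity for IGFs that is found in matrix around vessels, read 172, 148 and 179 TPM in Control, 172, 185 and 168 TPM in LPS, and 177, 182 and 172 TPM in LPS_NZM. Those 3 groups overlapped. Aged libraries read 226, 241 and 251 TPM, and Aged_NZM libraries 604, 528 and 554 TPM, so the BMSC groups lay above the BMDM groups and apart from each other.

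The other binding proteins were read mainly in BMDM or mainly in BMSC libraries. Because the BMDM libraries also held stromal and neutrophil marker transcripts, which of their cells carried a given transcript cannot be told. Igfbp6 (ENSMUSG00000023046), which prefers IGF2, read 319, 313 and 319 TPM in Aged and 717, 671 and 652 TPM in Aged_NZM, against 1.80 to 5.10 TPM over the 9 BMDM libraries. Igfbp3 (ENSMUSG00000020427), the main carrier of IGFs in blood, read 52.4, 55.9 and 54.4 TPM in Aged and 14.9, 16.1 and 14.7 TPM in Aged_NZM, against 0.30 to 2.37 TPM in BMDM. Igfbp5 (ENSMUSG00000026185), known from bone matrix, went the other way, with 8.06, 9.70 and 8.57 TPM in Control, 12.4, 12.6 and 14.0 TPM in LPS, and 15.1, 14.6 and 15.8 TPM in LPS_NZM. In BMSC it was near 0, at 0 to 0.09 TPM. Igfbp2 (ENSMUSG00000039323), a carrier that can also bind integrins, read 2.53 to 3.97 TPM over the BMDM libraries, 0.38 to 0.55 TPM in Aged and 0.88 to 1.05 TPM in Aged_NZM.

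Summed over the 6 binding proteins, libraries held 348 to 379 TPM in Control, 239 to 252 in LPS, 310 to 321 in LPS_NZM, 733 to 754 in Aged and 1301 to 1424 in Aged_NZM. Igfbp4 made up 49.9% of that sum in Control, 19.7% in LPS and 36.7% in LPS_NZM, while the share of Igfbp7 was 45.6%, 71.9% and 56.1%. In BMSC Igfbp6 led, with 42.7% in Aged and 50.6% in Aged_NZM, and the share of Igfbp3 was 7.31% and 1.13%. The TPM of Igf1 divided by this sum was 0.939 ± 0.0634 in Control, 0.483 ± 0.0156 in LPS and 1.27 ± 0.0692 in LPS_NZM (SD, n = 3). In BMSC it was 0.00277 ± 0.00017 in Aged and 0.0116 ± 0.00131 in Aged_NZM, so ligand transcripts were few beside those of the carriers in both BMSC groups. Igfbp7, the relative with low affinity for IGFs, counts in full in the sum and changed little with LPS (167 to 175 TPM). Igf1 fell 2.91-fold with LPS and Igfbp4 3.79-fold, so the lower ratio in LPS depends on counting Igfbp7. All these ratios concern transcripts and not secreted protein.

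**Figure D2:**
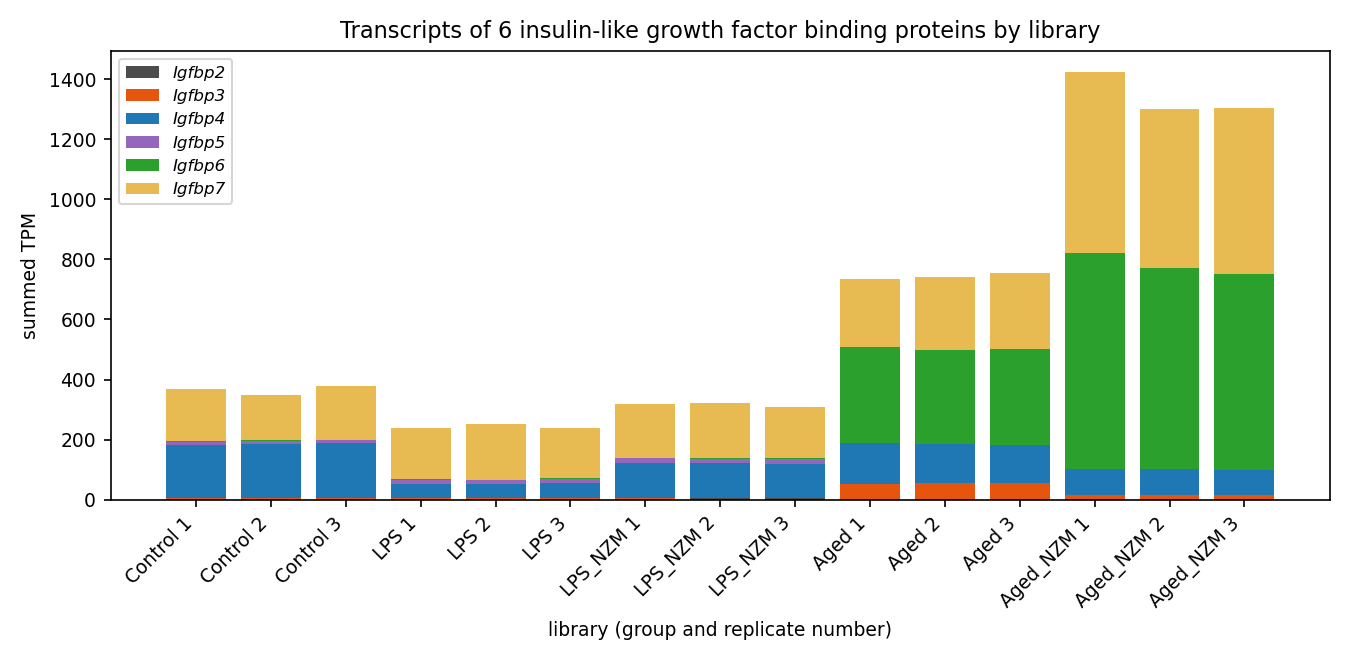
Summed TPM (vertical axis) of the 6 binding protein genes in each of the 15 libraries, with each gene's part stacked in its colour. BMDM libraries were mostly Igfbp4 and Igfbp7, and BMSC libraries Igfbp6 and Igfbp7, with the highest sums of 1301 to 1424 TPM in Aged_NZM.

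With LPS, the ligand and its most abundant classical carrier fell in BMDM. Igf1 was 2.91-fold lower in TPM than in Control (log2 change -1.53, SE 0.033, adjusted p = 6.33e-11), and Igfbp4 was 3.79-fold lower (log2 change -1.90, SE 0.034, adjusted p = 1.69e-11). No LPS library overlapped Control for either gene. Both receptors fell less, Igf1r by 0.57 and Igf2r by 0.53 on the log2 scale (adjusted p = 4.19e-05 and 1.58e-05). Igfbp5 rose by 0.52 (adjusted p = 0.000133) and the scarce Igfbp3 by 0.68 (adjusted p = 0.0205). Igfbp3 read 1.52, 1.13 and 0.30 TPM in Control and 1.90, 2.37 and 1.94 TPM in LPS, and its call was lost without Control replicate 3 (log2 change 0.40, adjusted p = 0.0523) or without LPS replicate 2 (log2 change 0.61, adjusted p = 0.0668).

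For Igfbp7 the log2 change with LPS was 0.08, with a 95% interval of -0.07 to 0.22, and that of Igfbp2 was -0.09. Neither was called. That of Igfbp6 was -0.43 (adjusted p = 0.113), and it was called without Control replicate 3 (-0.63, adjusted p = 0.0314) or without LPS replicate 1 (-0.64, adjusted p = 0.0299). In all, 6 of the 9 genes changed, 2 up and 4 down, against 80.8% of the 14486 tested genes, 15.2% up and 65.6% down. The groups did not overlap for 6 of the 9, against 81.8% of tested genes, so the number of changed members is not out of the ordinary here. The median change was -0.43 over the 9 genes and -0.48 over all tested genes.

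TPM are shares of a whole, and most tested genes fell with LPS. After every library was centred on the median of its tested genes, Igf1 (-0.99) and Igfbp4 (-1.35) remained called as lower, and Igfbp3 and Igfbp5 as higher. On that scale Igf1r (-0.03) and Igf2r (0.02) did not pass, and Igfbp2 (0.46) and Igfbp7 (0.62) were called as higher, which makes 4 up and 2 down, against 65.5% of tested genes, 36.5% up and 29.1% down. The summed macrophage markers went from 35253 to 37618 TPM in Control to 26159 to 26296 TPM in LPS. Of these 15 genes 4 were higher and 11 lower, or 5 and 6 after centring. The summed stromal markers went from 6534 to 6955 TPM in Control to 5332 to 5656 TPM in LPS. Of these 16 genes 2 were higher and 10 lower, or 14 and 0 after centring. Osteoblast markers read 68.2 to 71.0 TPM in Control and 38.5 to 43.4 TPM in LPS, with 4 of 4 tested genes lower. After centring 1 was higher and 2 lower. Neutrophil markers read 1660 to 1852 TPM in Control and 2335 to 2567 TPM in LPS, with 4 of 10 higher and 3 lower. The part of these shifts in the changes above was not tested.

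**Figure D3:**
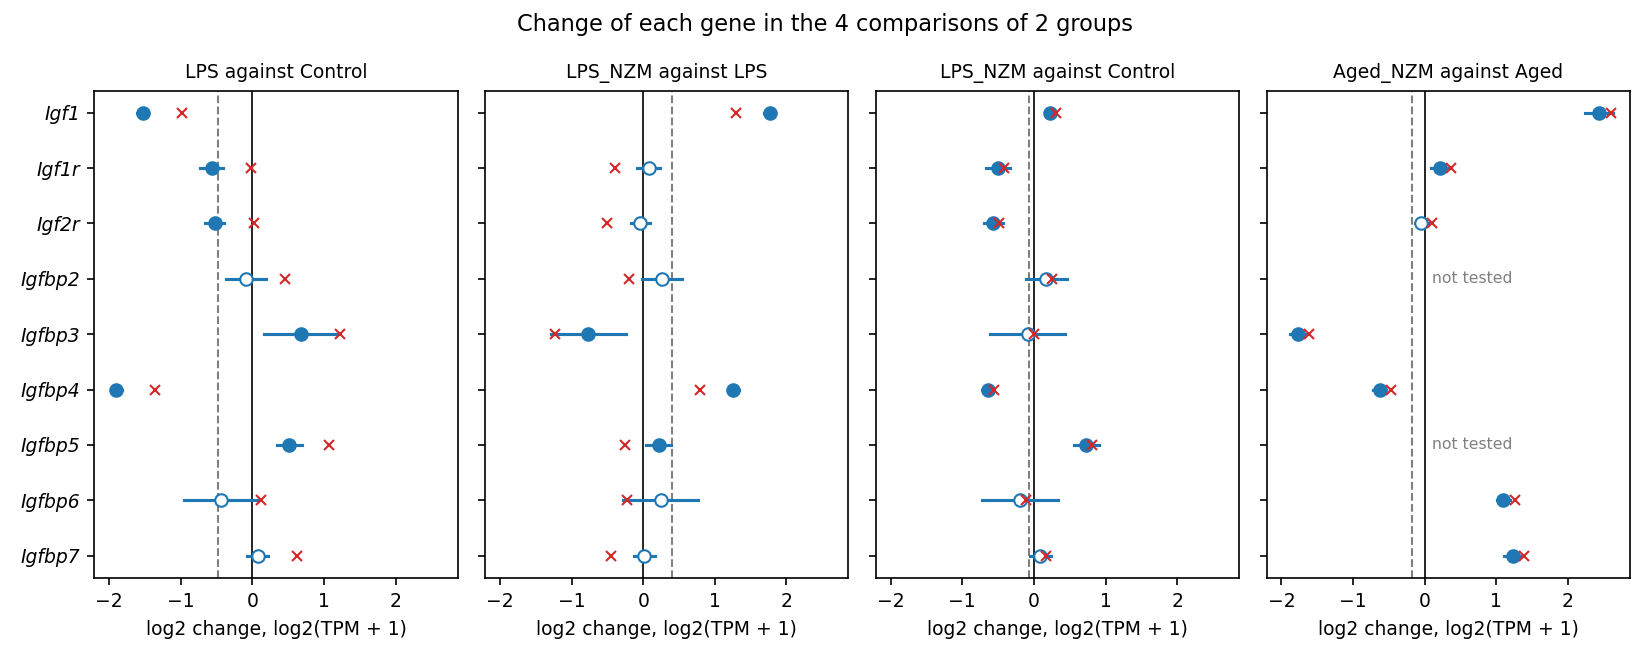
Change of each gene on the log2(TPM + 1) scale (horizontal axes) in the 4 comparisons of 2 groups. Circles are estimates with 95% intervals, filled where the adjusted p was under 0.05, red crosses are the estimates after median centring, and the dashed line is the median of all tested genes. Igf1 was at -1.53, 1.77, 0.23 and 2.44 from left to right, and the crosses of Igf1r and Igf2r lay near 0 for LPS against Control.

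With NZM added to LPS, Igf1 and Igfbp4 rose. Igf1 was 3.42-fold higher in LPS_NZM than in LPS (log2 change 1.77, SE 0.033, adjusted p = 2.60e-11), and Igfbp4 was 2.42-fold higher (log2 change 1.26, SE 0.034, adjusted p = 3.00e-10). Igfbp3 fell by 0.77 on the log2 scale (adjusted p = 0.0122), from 2.07 ± 0.261 to 0.813 ± 0.257 TPM (SD, n = 3). These 3 calls held after centring, with log2 changes of 1.30, 0.79 and -1.23. Igfbp5 rose by 0.21 (adjusted p = 0.0279), but the sign turned to -0.25 (adjusted p = 0.0125) after centring. Its call was lost without LPS replicate 1 (adjusted p = 0.0879), LPS replicate 2 (0.0792), LPS_NZM replicate 1 (0.0581) or LPS_NZM replicate 3 (0.0856).

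The receptors did not pass in this comparison. Igf1r had a log2 change of 0.07 (95% interval -0.09 to 0.24) and Igf2r one of -0.04 (-0.17 to 0.10). Igfbp7 stood at 0.02 (-0.13 to 0.16), Igfbp6 at 0.24 and Igfbp2 at 0.27 (adjusted p = 0.0765, and 0.0433 without Control replicate 1). Most tested genes rose with NZM, and after centring Igf1r (-0.39), Igf2r (-0.50) and Igfbp7 (-0.45) were called as lower. Thus 4 of 9 genes changed as deposited, 3 up and 1 down, and after centring 7 changed, 2 up and 5 down, where 65.1% of tested genes did (29.8% up and 35.3% down). As deposited, changes were called in 77.3% of the 14486 tested genes (60.4% up, 16.9% down). The groups did not overlap for 79.8% of tested genes and for 5 of the 9. This comparison and that of LPS with Control share the LPS libraries. Summed macrophage markers read 30456 to 31106 TPM in LPS_NZM and stromal markers 6109 to 6301 TPM, both above LPS. Of 15 macrophage markers 9 were higher and 4 lower, or 6 and 8 after centring. Of 16 stromal markers 9 were higher and 4 lower, or 0 and 12 after centring. Osteoblast markers (8 genes) read 64.2 to 65.0 against 38.5 to 43.4 TPM in LPS, with 3 of 4 tested genes higher and none lower. Of 7 tested endothelial markers 2 were higher and 1 lower. The neutrophil sum was 2110 to 2515 TPM. The part of these markers in these changes was not tested.

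Against Control, LPS_NZM kept a changed set of transcripts. Igf1 was 1.17-fold Control (log2 change 0.23, SE 0.033, adjusted p = 0.000278), with every LPS_NZM library above every Control library. Igfbp4 stayed lower (116 ± 1.81 against 182 ± 3.13 TPM), with a log2 change of -0.65 (adjusted p = 2.16e-07). Igfbp5 was higher at 15.2 ± 0.603 against 8.78 ± 0.839 TPM (log2 change 0.73, adjusted p = 3.95e-05). Igf1r and Igf2r were both lower, by log2 changes of -0.50 (adjusted p = 0.000366) and -0.57 (adjusted p = 3.76e-05). Igfbp2, Igfbp3, Igfbp6 and Igfbp7 did not pass, with log2 changes from -0.19 to 0.18. The 5 calls, 2 up and 3 down, were also made after centring, where 47% of tested genes changed, 24.9% up and 22% down. As deposited, 47.7% did so (18.6% up, 29.1% down). The groups did not overlap for 55.9% of tested genes and for 5 of the 9.

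In BMSC, NZM after H2HO went with more Igf1, Igfbp6 and Igfbp7 and with less Igfbp3 and Igfbp4. Igf1 was 7.58-fold higher in Aged_NZM than in Aged (log2 change 2.44, SE 0.086, adjusted p = 1.70e-08), a change larger in size than that of 99.6% of tested genes, although its level of 15.6 ± 1.38 TPM remained far under that of any BMDM group. Igfbp6 was 2.14-fold higher (log2 change 1.10, SE 0.040, adjusted p = 1.85e-08) and Igfbp7 2.35-fold higher (log2 change 1.23, SE 0.055, adjusted p = 7.01e-08). Igfbp3 was 3.57-fold lower (log2 change -1.77, SE 0.051, adjusted p = 6.02e-09) and Igfbp4 1.55-fold lower (log2 change -0.63, SE 0.039, adjusted p = 5.48e-07). For these 5 genes the Aged and Aged_NZM libraries did not overlap.

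Igf1r rose slightly, by 0.21 on the log2 scale (adjusted p = 0.00536), while Igf2r had a log2 change of -0.05 (95% interval -0.14 to 0.04). Igf2r turned to 0.11 (adjusted p = 0.0162) after centring, and the other 6 calls kept their side and direction, where 66.5% of tested genes were called (31.1% up, 35.4% down). Igfbp2 and Igfbp5 were below the level required for testing. Without that requirement Igfbp2 was called as higher, from 0.38, 0.48 and 0.55 TPM to 0.93, 0.88 and 1.05 TPM (log2 change 0.41, adjusted p = 0.0133). Of the 7 tested genes 6 changed, 4 up and 2 down, against 70.5% of 13865 tested genes, 21.6% up and 48.9% down, and the groups did not overlap for 73.8% of tested genes. The median change was 0.21 over the 7 genes and -0.18 over all tested genes.

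All 16 stromal and fibroblast markers were higher in Aged_NZM than in Aged, with a median log2 change of 1.42 and summed levels of 11151 to 11207 against 4340 to 4568 TPM. Macrophage markers, whose summed level was 30.7 to 35.4 TPM in Aged and 22.4 to 25.1 TPM in Aged_NZM, had 1 of 6 tested genes higher and 1 lower. Summed macrophage markers were thus lower where Igf1 was higher. Endothelial markers summed to 11.9 to 13.1 TPM in Aged and 7.37 to 8.45 TPM in Aged_NZM. The part of the stromal marker shift in the changes of the binding proteins was not tested.

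The NZM responses of the cell types were compared directly as the change in BMSC minus the change in LPS-treated BMDM. Igfbp4 differed most, by -1.88 on the log2 scale (SE 0.048, adjusted p = 2.16e-13), since it rose in BMDM and fell in BMSC. Igfbp7 (1.21, adjusted p = 3.47e-08) and Igfbp6 (0.85, adjusted p = 0.0108) differed in the other direction. Igf1 rose in both, and its response on this scale was larger in BMSC by 0.67 (95% interval 0.51 to 0.84, adjusted p = 1.59e-06). Igfbp3 fell in both, and its fall was larger in BMSC by a difference of -1.004 (adjusted p = 0.00309), which was -0.54 (adjusted p = 0.399) with a pseudocount of 0.1 and -0.38 (adjusted p = 0.209) after centring.

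Igf1r (0.14), Igf2r (-0.01), Igfbp2 (0.14) and Igfbp5 (-0.19) did not pass. In this test 5 of 9 genes differed, 3 in the higher and 2 in the lower direction, against 72% of 16696 tested genes (17.2% and 54.8%), whose median difference was -0.45. After centring 8 of 9 differed, 7 higher and 1 lower (Igfbp4), against 68.6% of tested genes (39.9% and 28.7%). That count includes Igfbp2 and Igfbp5, which were below the level required for testing in BMSC. Igfbp2 averaged 0.47 TPM in Aged and 0.953 TPM in Aged_NZM, and Igfbp5 0.0267 and 0.0467 TPM. At such levels log2(TPM + 1) leaves little room for a change in BMSC. The Igfbp6 difference was 0.77 (adjusted p = 0.0686) with a pseudocount of 0.1. The cell types also differed in the agent given before NZM, which cannot be told apart from the cell type.

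Other genes around the pathway were taken from 6 lists of 99 genes in all. Of all tested genes, 15.2% were higher and 65.6% lower with LPS, or 36.5% and 29.1% after centring. With NZM added to LPS 60.4% were higher and 16.9% lower, or 29.8% and 35.3% after centring. In BMSC with NZM 21.6% were higher and 48.9% lower, or 31.1% and 35.4% after centring. The list counts stand beside these shares. Among ligands, receptors and adaptors, Igf2 was at or under 1.43 TPM on average in every group but Aged_NZM (2.30 TPM), and the mean of Ins2 was 0 in all groups but Aged (0.0733 TPM). With LPS 3 of 10 tested genes of this list rose and 5 fell, with a median of -0.13 against -0.48 over all tested genes. After centring 6 rose and 3 fell. Insr, the insulin receptor gene, fell from 11.7 ± 1.08 to 4.87 ± 0.221 TPM, and Grb10, an adaptor that restrains both receptors, from 38.5 ± 1.14 to 20.6 ± 0.555 TPM. The adaptor gene Sh2b2 and Sos1, an activator of RAS, rose by 1.08 and 1.13. With NZM added to LPS 6 rose and 3 fell, but after centring 3 were higher and 5 lower. Insr read 10.1 ± 0.596 TPM in LPS_NZM. In BMSC with NZM 5 of 11 rose and 4 fell, led by Grb14, another adaptor that restrains insulin signalling (32.9 ± 0.663 to 111.6 ± 5.02 TPM), with Shc1 and Gab1 rising by 0.52 and 0.55.

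Of 12 tested relatives and processing enzymes of the binding proteins, 2 rose and 9 fell with LPS, or 6 and 2 after centring. Pappa, which encodes the protease of Igfbp4, fell from 9.87 ± 0.651 to 3.35 ± 0.357 TPM and read 5.33 ± 0.406 TPM in LPS_NZM. Mmp14, a membrane-bound metalloproteinase gene, went from 259 ± 12.0 to 1371 ± 55.8 TPM with LPS and to 303.5 ± 9.11 TPM with NZM. Ctsd, a lysosomal protease gene, read 7237 ± 87.6, 2797 ± 44.2 and 5016 ± 87.8 TPM in Control, LPS and LPS_NZM. With NZM added to LPS 5 of this list rose and 2 fell, or 3 and 6 after centring. In BMSC 8 of 11 rose and 3 fell, with a median of 0.54 against -0.18 over all tested genes. They included Stc1, which encodes stanniocalcin-1, an inhibitor of PAPP-A (25.7 ± 1.43 to 75.6 ± 2.82 TPM), and the protease gene Adam9 (log2 change 0.47). Igfals, whose product joins Igfbp3 in the blood complex, averaged 0.01 to 0.41 TPM in the 5 groups, and Igfbp1 averaged 0 to 0.57 TPM.

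In the PI3K, AKT and mTOR relay of BMDM, 23 of 27 genes fell and 3 rose with LPS (median -0.51), and 19 rose and 5 fell with NZM (median 0.46 against 0.40 over all tested genes). Among all tested genes 65.6% fell and 15.2% rose with LPS, and 60.4% rose and 16.9% fell with NZM. After centring the list counts were 12 higher and 10 lower, and 12 higher and 13 lower. Inpp5d, the SHIP1 phosphatase gene, had log2 changes of -2.38 with LPS and 2.15 with NZM, and Pik3r2, a regulatory PI3K subunit gene, -1.91 and 2.10. In BMSC 5 of 26 rose and 11 fell, or 10 and 7 after centring, with Deptor, an inhibitor of mTOR (9.88 ± 0.789 to 23.3 ± 0.881 TPM), and the subunit gene Pik3r1 (15.8 ± 0.960 to 32.6 ± 1.61 TPM) higher and the translation repressor gene Eif4ebp1 lower (275 ± 2.98 to 156 ± 6.91 TPM).

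FOXO factors, which AKT inactivates, and genes known as their targets were lower in 11 of 14 cases with LPS and higher in 1. Among all tested genes 65.6% were lower and 15.2% higher. After centring 6 of this list were lower and 4 higher. With NZM 11 rose and 2 fell in BMDM, or 6 and 3 after centring, and 11 of 14 rose and 2 fell in BMSC, or 12 and 2. Sesn1, a stress-inducible sestrin gene, read 56.9 ± 1.48 TPM in Control, 3.02 ± 0.263 in LPS and 41.9 ± 0.526 in LPS_NZM. Its relative Sesn3 rose from 9.10 ± 0.310 to 25.1 ± 0.963 TPM in BMSC, and Txnip, which restrains glucose uptake, rose with NZM in both cell types, by 1.58 in BMDM and 0.70 in BMSC.

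Growth hormone drives Igf1 through its receptor, JAK2 and STAT5, and genes of that axis were a separate list of 8. In LPS_NZM against LPS, 2 rose, 3 fell and 3 did not pass, and after centring 2 were higher and 6 lower. Cish rose from 4.07 ± 0.216 to 74.9 ± 3.67 TPM and Socs2 from 2.41 ± 0.200 to 11.6 ± 0.457 TPM, both genes being feedback inhibitors that STAT5 is known to induce. Jak2 rose with LPS from 24.7 ± 1.27 to 230.4 ± 5.92 TPM and read 80.2 ± 3.37 TPM in LPS_NZM. With NZM added to LPS, Stat5a (log2 change -0.25) and Ptpn6 (-0.46) also fell, while Ghr (0.09), Stat5b (-0.05) and Ptpn11 (-0.04) did not pass. The part of this axis in the Igf1 change was not tested. In BMSC 7 of 8 rose and 1 fell, with a median of 0.64, among them Socs2 (6.62 ± 0.225 to 15.8 ± 0.280 TPM), Stat5a (log2 change 0.80), Cish (0.75) and Jak2 (0.54). With LPS 4 rose and 3 fell, or 6 and 0 after centring.

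Genes of mannose 6-phosphate sorting, the second task of Igf2r, were lower in 15 of 17 cases with LPS and higher in 1. Among all tested genes 65.6% were lower and 15.2% higher. After centring 5 of this list were lower and 8 higher. The riser before centring was M6pr, the smaller receptor for the same tag (418 ± 15.96 to 596 ± 6.87 TPM). With NZM added 13 rose and 2 fell, or 8 and 5 after centring, among them Ap1b1, an adaptin of Golgi vesicles (25.2 ± 0.905 to 218 ± 4.17 TPM), and Snx5, a sorting nexin that retrieves Igf2r (110.0 ± 1.70 to 1113 ± 15.3 TPM). Snx5 went the other way in BMSC, from 216 ± 2.67 to 113 ± 4.57 TPM, in a list with 1 riser (Gnptg) and 11 falls of 17, or 2 higher and 8 lower after centring. Against Control, the 6 lists had 22 of 88 tested genes higher in LPS_NZM and 33 lower, beside 18.6% higher and 29.1% lower among all tested genes. After centring 26 were higher and 27 lower.

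**Figure D4:**
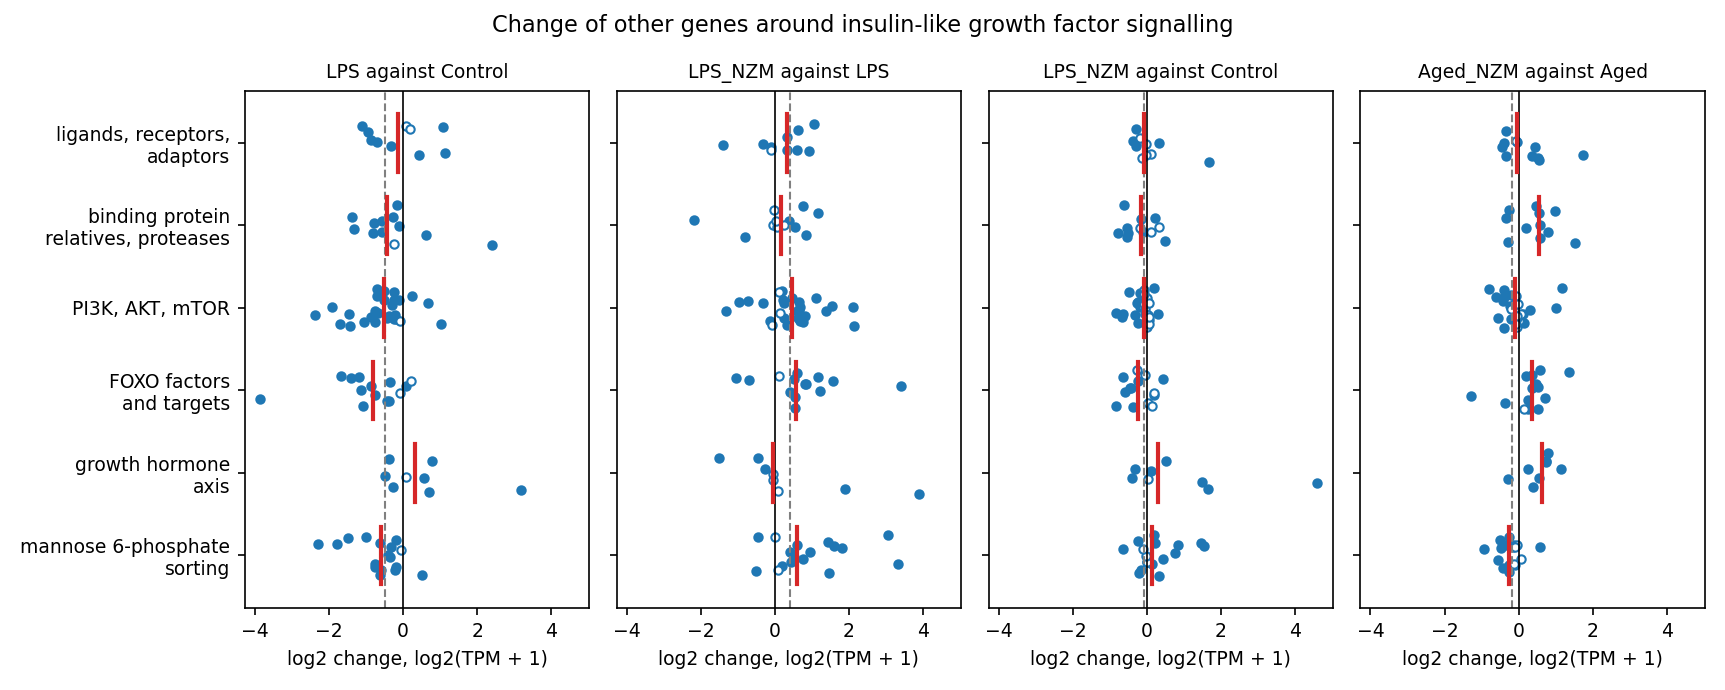
Change on the log2(TPM + 1) scale (horizontal axes) of each tested gene in the 6 lists, by comparison. Points are genes, filled where the adjusted p was under 0.05, with random vertical spread, red bars are list medians and the dashed line is the median of all tested genes. In BMDM the medians of the PI3K, AKT and mTOR list lay near the dashed line, at -0.51 and 0.46 for LPS and for NZM added to LPS.

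The genes most like Igf1 over the 15 libraries, after each cell type's mean was subtracted, were Mettl7a1, a methyltransferase-like gene (Pearson r = 0.995), the matrix signalling gene Ccn1 (0.995) and the lipoprotein lipase gene Lpl (0.993), among 11574 candidates. Ncoa1 (0.977), Lats2 (0.976) and Sp3 (0.972) were most like Igf1r, and Tnrc6a (0.981), Iqgap1 (0.980) and St8sia4 (0.980) most like Igf2r. These values describe group differences that the libraries share and are given without a test. Lpl read 3446, 1390.0 and 3312 TPM in Control, LPS and LPS_NZM and 59.9 and 249.9 TPM in Aged and Aged_NZM, while Ccn1 read 419, 293, 438, 360 and 673 TPM in the same order. Within the family Igf1r and Igf2r had r = 0.894 on this measure, and Igf1 and Igfbp3 had r = -0.927.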

How the data were processed

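The authors deposited 1 table of TPM for 15 libraries. The labels' protocols describe polyA selection, a stranded Illumina mRNA kit and paired sequencing. Per the submitters' processing notes, fastp, HISAT2, StringTie and RSEM were used with build GRCm39, and versions, roles, annotation and strand setting are not given in the sources used here. Deposited TPM summed to the same total in every library, so depth is unknown and no counting interval is given. A name table of an older build gave symbols for 52072 of 56979 identifiers.

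Moderated two-sided tests came from limma 3.58.1 under R 4.3.3, using log2(TPM + 1) and a variance trend over mean level. A gene was tested when at least 3 libraries of the fit reached a TPM of 1. The 9 BMDM and the 6 BMSC libraries were fitted apart, and all 15 together for the difference between NZM responses. The Benjamini-Hochberg adjustment ran over all tested genes of a comparison. Members and lists were chosen with earlier results of these data known. From each pathway list, up to 4 called genes per comparison with the largest changes and at least 5 TPM in the higher group were eligible to be named; genes named besides these were chosen after their values were seen, among them Igf2, Ins2, Igfals, Igfbp1, M6pr and Airn. Likeness was the Pearson r described with its values. Each result was recomputed with median centring, with 0.1 as pseudocount, unfiltered, with a minimum TPM of 5, without the trend, with a replicate block, on other sets of libraries and without each library in turn. Simulated data with known changes were used to check the scripts. Figures were drawn with Python 3.11.15 and matplotlib 3.10.9. RefSeq upstream windows matched all 9 genes by symbol.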

Additional observations from a re-analysis of the deposited data

Results flagged for a closer look

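The response to NZM differed between BMSC and LPS-treated BMDM for 5 of the 9 genes, by the test of the difference itself in a fit of all 15 libraries with limma. As the change in BMSC minus the change in BMDM on the log2(TPM + 1) scale, it was 0.67 for Igf1, -1.004 for Igfbp3, -1.88 for Igfbp4, 0.85 for Igfbp6 and 1.21 for Igfbp7. As deposited, only Igfbp4 had called changes of opposite direction in the 2 cell types. It went from 48.0 to 116 TPM in BMDM and from 131 to 84.7 TPM in BMSC. After median centring Igf1r (-0.39 in BMDM and 0.37 in BMSC), Igf2r (-0.50 and 0.11) and Igfbp7 (-0.45 and 1.39) also had such calls. As deposited, 72% of all tested genes differed in the test of the difference.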

How the results depend on the processing

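Of 43 tested results for single members, 22 kept direction and side of the threshold under every alternative, among them all those of Igf1 and Igfbp4, and 8 changed only with median centring. Centring reversed the log2 changes of Igf2r (0.017), Igfbp2 (0.46) and Igfbp6 (0.11) in LPS against Control, of Igf1r (-0.39), Igfbp2 (-0.20), Igfbp5 (-0.25), Igfbp6 (-0.22) and Igfbp7 (-0.45) in LPS_NZM against LPS, of Igf2r (0.11) in Aged_NZM against Aged, and of Igf2r (0.61) and Igfbp5 (0.43) in the difference between NZM responses. It raised the members changed from 4 to 7 in LPS_NZM against LPS and from 5 to 8 in the difference. The latter count includes Igfbp2 and Igfbp5, which were below the level required for testing in BMSC. The cause was not tested. Leaving out single libraries turned the sign of 6 results that had no call. These were Igfbp7 in LPS against Control (-0.0054 to 0.13), Igf2r (-0.10 to 0.0054) and Igfbp7 (-0.014 to 0.057) in LPS_NZM against LPS, Igfbp3 (-0.36 to 0.11) and Igfbp6 (-0.39 to 0.027) in LPS_NZM against Control, and Igf2r in the difference (-0.054 to 0.050). With no filter on low values the call of Igfbp5 in LPS_NZM against LPS was lost (adjusted p = 0.0518). The labels do not pair libraries by replicate number. Same-numbered libraries had deviations correlated at -0.0716 to 0.212, with some pairs below 0, and different-numbered libraries at -0.183 to 0.0929. Between Control and LPS_NZM the same-numbered values were 0.158, 0.03 and 0.212, so these correlations do not settle whether libraries were paired. With the replicate block 11683, 11089, 6681, 9688 and 11935 genes changed in the 5 comparisons in the order reported, against 11705, 11197, 6915, 9774 and 12020 without it, and 1 of the 43 member results changed its call, that of Igfbp2 in LPS_NZM against LPS (adjusted p = 0.0359). Depth is unknown, so for Igfbp2, Igfbp3 and Igfbp6 in BMDM and Igfbp5 in BMSC no limit from counting can be given.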
